A study of Mus musculus with 18 samples.

Results

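The genes described here are 40 genes of the mitotic cell cycle, taken from a fixed list of symbols. The list was chosen with earlier results of these data known. All 40 were found as rows in each of 18 Drop-seq tables, among 22049 genes in all. They fall into 13 genes of DNA replication and nucleotide supply (the S-phase members), 24 genes of the G2 phase and of mitosis (the mitotic members), and 3 genes that mark dividing cells without belonging to either group. All 40 passed the filter on low counts, and none was at 0 in any library.

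The tables come from lungs, spleens and implanted biomaterial scaffolds, porous implants that host cells enter, of female BALB/cJ mice. Tumour-bearing mice were 7 to 8 weeks old when 2000000 cells of 4T1-tdTomato-luc2, a labelled mouse mammary carcinoma line, were put into a mammary fat pad. Healthy mice had no tumour cells, and animals of both kinds were 9, 10 or 11 weeks old at day 7, 14 or 21. Each tissue, status and day gave 1 library, and the number of animals behind a library is not given in the sources used here, so p-values measure the spread between libraries. Kept cells numbered 484 to 3387 per library, with medians of 383 to 1222.5 UMIs (unique molecular identifiers, the counted transcripts) per cell. Levels are given as CPM, a gene's count scaled to all UMIs of a library's kept cells.

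Barcodes tie some libraries together. A kept barcode was taken as a library's own unless another library held the same barcode and it did not lead there by at least 5 times in UMIs. In healthy spleen at day 21, 94.7% of kept barcodes were not own, and in healthy lung at day 21, 77.2%. In the other 16 libraries the share was at most 31.6%. Main results that rest on these 2 healthy libraries are given also without them or on own barcodes alone.

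Cells that divide copy their DNA in S phase and separate the copies in mitosis, and they switch on the genes for each step in turn. E2F factors turn on the S-phase genes, such as the Mcm2 to Mcm7 subunits of the helicase that unwinds DNA, and the genes of the mitotic spindle and of the cyclin B kinase follow later. In adult mice most division of blood cells takes place in bone marrow, but the mouse spleen keeps sites of blood formation in its red pulp, and neutrophil precursors stop dividing before they mature. Lung and spleen also hold macrophages and lymphocytes that can divide in place.

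The spleen of tumour-bearing mice held the highest levels of most members. The summed CPM of the 13 S-phase members was 520.1, 1778 and 1733 in tumour-bearing spleen at days 7, 14 and 21, against 446.2, 305.5 and 862.7 in healthy spleen. The summed CPM of the 24 mitotic members was 877.8, 3712 and 4372 in tumour-bearing spleen, against 1541, 1064 and 2109 in healthy spleen. At day 7 the mitotic sum was thus lower in the tumour-bearing spleen, and at days 14 and 21 both sums lay above all 3 healthy spleen libraries. The day 21 healthy value is the library with 94.7% of barcodes not own, and against the other 2 healthy libraries the distance was larger. On own barcodes alone that library kept only 27 cells, with 93.3% of its UMIs left out, so its sums rest on few UMIs. Its S-phase sum was then 2386 CPM, above the 1793 and 1841 CPM of tumour-bearing spleen at days 14 and 21. Its mitotic sum of 2995 CPM stayed below their 3740 and 4616 CPM.

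In lung the S-phase sum was 426.5, 368.6 and 683.9 CPM in the healthy libraries and 309.9, 201.7 and 186.7 CPM in the tumour-bearing ones. Every tumour-bearing lung value lay below every healthy one, also without the healthy library of day 21. The mitotic sum in lung was 1322, 609.5 and 2232 CPM in healthy libraries and 1086, 743.5 and 697.4 CPM in tumour-bearing ones, with overlapping ranges. In scaffold both sums were highest at day 7. The S-phase sum there was 648.1, 341.5 and 336.6 CPM in healthy and 786.7, 281.6 and 270.9 CPM in tumour-bearing libraries, and the mitotic sum was 1172, 587.5 and 794.7 CPM against 1712, 525.2 and 372.6 CPM. The 2 statuses of scaffold overlapped in both sums.

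**Figure D1:**
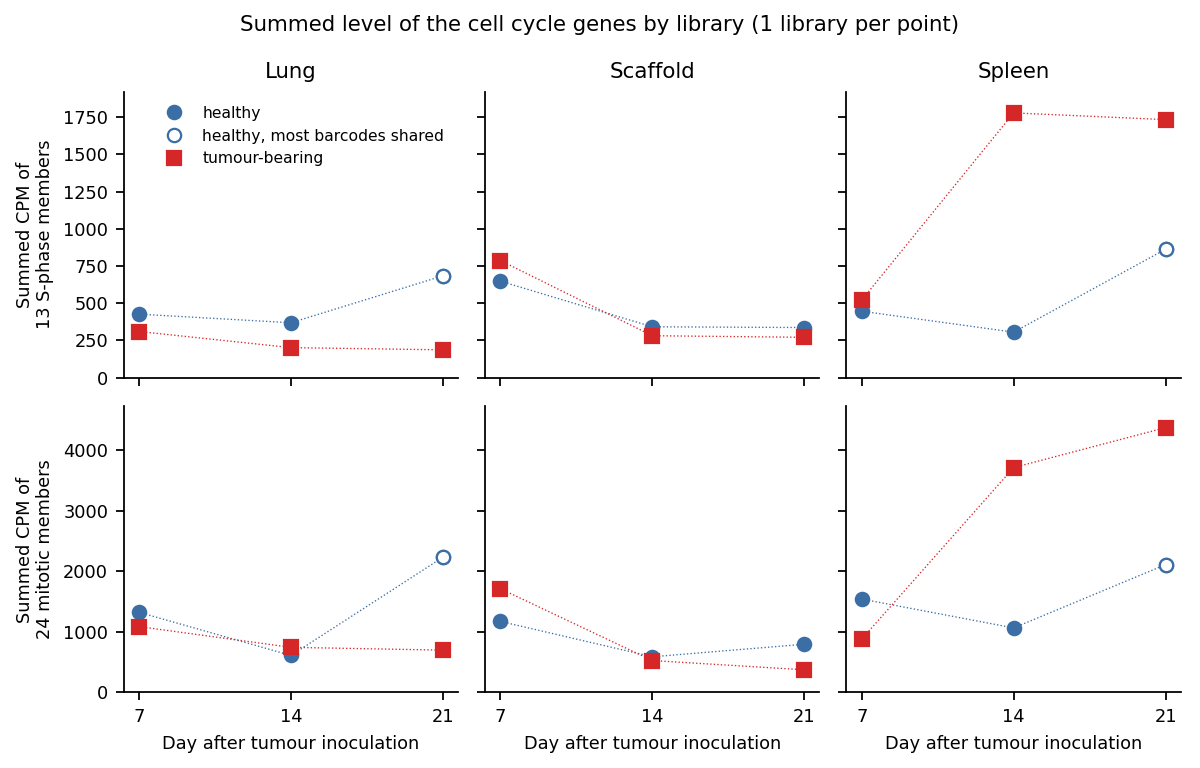
Summed CPM of the S-phase members (top) and of the mitotic members (bottom) against day, by tissue, with 1 library per point and dotted lines only to guide the eye. Tumour-bearing spleen at days 14 and 21 stands above all other points, with S-phase sums of 1778 and 1733 CPM. Open circles are the 2 healthy libraries of day 21 whose barcodes were mostly not their own.

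The median member of tumour-bearing spleen lay above all healthy spleen libraries at days 14 and 21, and below all of them at day 7. It stood at 24, 84 and 107 CPM in tumour-bearing spleen and at 31.5, 27.1 and 73.6 CPM in healthy spleen. On own barcodes alone, healthy spleen at day 21 had 102 CPM. That was above the 84.4 CPM of tumour-bearing spleen at day 14 and below its 108 CPM at day 21. The healthy value then came from only 27 cells and few UMIs, so this order is not reliable. Of the 40 members, 25 had their highest level in tumour-bearing spleen at day 21 (7 S-phase, 15 mitotic and 3 of neither group) and 9 in tumour-bearing spleen at day 14. Another 3 were highest in healthy spleen at day 21, 2 in healthy lung at day 21, and 1, Pcna, in tumour-bearing scaffold at day 7. The lowest level fell in tumour-bearing scaffold at day 21 for 11 members, in tumour-bearing scaffold at day 14 for 8 and in tumour-bearing lung at day 14 for 6. The share of all genes with their highest or lowest level in each library was not counted, so these counts have no background. The lowest levels rest on few UMIs for the rarer members: Plk1, a mitotic kinase, was lowest at 0.551 CPM, from 1 UMI.

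Within each role the members moved together across libraries. The median Pearson correlation of log2(CPM + 1) over the 18 libraries was 0.71 between S-phase members, 0.79 between mitotic members and 0.68 between the groups. Pairs within the S-phase group ranged from 0.30 to 0.92 and within the mitotic group from 0.27 to 0.97. These points share libraries, depth and cell makeup, and without the 6 spleen libraries the medians were 0.56, 0.68 and 0.47. Birc5, the survivin subunit of the chromosomal passenger complex, was most like its group, with a median correlation of 0.89 with the other mitotic members. Pcna, the sliding clamp of DNA polymerase, was least like the S-phase members, at 0.39, and Kif20b, a kinesin of late mitosis, had 0.55 with the mitotic members. Hmgb2, a DNA-bending chromatin protein, followed neither group closely, with medians of 0.22 and 0.39.

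Because the members of a group moved together, the letters before their start sites are shown. Promoter windows of 300 bases from RefSeq on GRCm38.p6, from 250 bases before to 50 after the start, were searched on both strands for 3 motifs. These were the cell cycle homology region CHR (TTTGAA or TTTAAA), known as the element read by the DREAM and MuvB complexes in mitotic genes, the CCAAT box (CCAAT), and E2F (GGCGGGAA, TTTGGCGC or TTTCGCGC). Windows were found for 12 of 13 S-phase members (13 windows), for 21 of 24 mitotic members (22 windows) and for 2 of the 3 others. Mcm4, Ccna2, Aurkb, Tpx2 and Stmn1 had none.

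Of the 22 mitotic windows, 20 held a CHR (90.9%), against 6 of 13 S-phase windows (46.2%) and 27.6% of all 32851 windows. The CCAAT box was in 86.4% of mitotic, 84.6% of S-phase and 37.4% of all windows. An E2F match was in 46.2% of S-phase windows, in 4.55% of mitotic windows and in 2.96% of all. A CHR together with a CCAAT box was in 81.8% of mitotic, 38.5% of S-phase and 10.7% of all windows. The motifs are short, so a match is a run of letters and not a bound site.

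**Figure D2:**
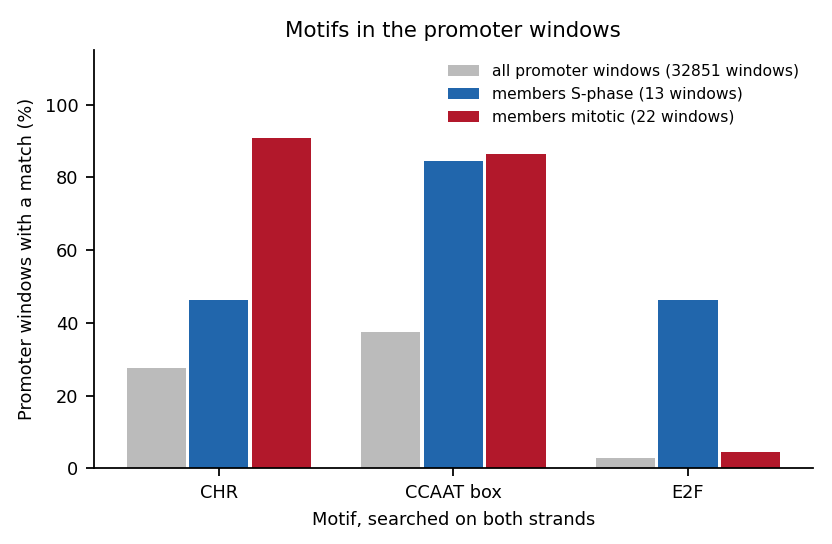
Percent of promoter windows with at least 1 match to each motif, for all windows (grey), S-phase members (blue) and mitotic members (red). CHR matches were in 90.9% of mitotic windows, and E2F matches in 46.2% of S-phase windows and 4.55% of mitotic ones.

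Bases upstream of the gene are given for 2 mitotic and 3 S-phase members, 5′ to 3′ on the gene's strand. Each stretch ends at the base before the outer end of the gene in RefSeq. For Mki67 and Top2a that end lies upstream of the start that set the searched window, so the bases next to that start are left out. Capitals mark the matches on either strand, so that a match on the other strand shows as its reverse complement. The windows are chr7:135716451-135716579 for Mki67 (minus strand), chr11:99024200-99024389 for Top2a (minus strand), chr12:24708054-24708253 for Rrm2 (plus strand), chr13:21780626-21780825 for Hist1h1b, named H1f5 in RefSeq (minus strand), and chr1:128359706-128359905 for Mcm6 (minus strand). Mcm6 was chosen after its matches were seen, to show E2F letters; 2 of its 3 E2F matches overlap in 1 run.
Mki67: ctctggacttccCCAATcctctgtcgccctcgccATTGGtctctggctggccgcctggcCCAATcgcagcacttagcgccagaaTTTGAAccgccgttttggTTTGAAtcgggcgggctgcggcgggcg
Top2a: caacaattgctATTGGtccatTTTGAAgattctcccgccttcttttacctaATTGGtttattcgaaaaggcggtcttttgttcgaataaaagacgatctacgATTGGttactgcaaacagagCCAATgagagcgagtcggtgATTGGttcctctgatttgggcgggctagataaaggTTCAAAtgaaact
Rrm2: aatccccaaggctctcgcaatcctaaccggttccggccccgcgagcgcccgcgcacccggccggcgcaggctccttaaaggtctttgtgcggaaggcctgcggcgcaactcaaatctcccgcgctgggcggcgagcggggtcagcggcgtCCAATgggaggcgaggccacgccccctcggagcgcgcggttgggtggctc
Hist1h1b: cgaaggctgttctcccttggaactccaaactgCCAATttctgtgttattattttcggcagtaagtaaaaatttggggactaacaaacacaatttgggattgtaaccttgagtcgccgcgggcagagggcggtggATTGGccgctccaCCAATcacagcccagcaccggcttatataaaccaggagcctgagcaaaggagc
Mcm6: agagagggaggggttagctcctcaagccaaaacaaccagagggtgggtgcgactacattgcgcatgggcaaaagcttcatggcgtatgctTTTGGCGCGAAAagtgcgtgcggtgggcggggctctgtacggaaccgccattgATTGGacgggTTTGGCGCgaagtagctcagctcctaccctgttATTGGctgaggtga
The stretches printed for both mitotic genes hold 2 CHR matches each, with 3 CCAAT boxes in Mki67 and 5 in Top2a. The searched window of Top2a holds 6 CCAAT boxes. Cenpe, a mitotic member not printed, has 1 CHR in its searched window but 0 in the bases upstream of the gene. The stretch printed for Rrm2 holds 1 CCAAT box, that of Hist1h1b 3, and that of Mcm6 2 beside its E2F letters. The stretches of Rrm2 and Hist1h1b hold 0 CHR matches, but their searched windows hold 1 each, outside the printed bases.

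The tumour effect in each tissue was tested by edgeR's quasi-likelihood test on UMIs summed per library, with the day as a block, with Benjamini-Hochberg adjustment over 11158 genes and calls under 0.05. In such sums, fewer cells of a type and less RNA per cell cannot be told apart. For the tumour effect in spleen 3 of 40 members were called higher (Hmgb2, Hist1h1b and Rrm2) and 0 lower, where 2.79% of all genes tested were called higher and 0.52% lower. The estimate was positive for 39 of 40 members, with a median log2 change of 1.301, against -0.032 over all genes. In lung 1 member, Hmgb2, was called higher and 0 lower (tumour effect in lung), where 6.16% of genes were called higher and 2.91% lower. There the estimate was positive for 5 of 40, with a median of -0.597 against -0.217 over all genes. The direction of that median turned with the libraries of day 21: it was 0.028, with 21 of 40 positive, with the 2 healthy ones left out, and 0.023 without day 21. In scaffold 0 members were called (tumour effect in scaffold), where 0.108% of genes were called higher and 0.0538% lower. In scaffold the estimate was positive for 12 of 40, with a median of -0.140 against 0 over all genes, and 410 genes had an unadjusted p under 0.05. DESeq2 called 0 members in scaffold too.

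These calls rest on few libraries. Without day 14, 0 members were called for the tumour effect in spleen or in lung, but of 11833 genes tested 0 were called in spleen and 40 higher and 2 lower in lung. Without day 7, 11 members were called in spleen, among 381 of 11769 genes called higher. With healthy lung and healthy spleen of day 21 left out, 0 were called in spleen, where 226 of 11986 genes were called higher, and 39 of 40 estimates were positive with a median of 1.189. Hist1h1b then had a log2 change of 2.48 in spleen (edgeR, adjusted p = 0.104) and Rrm2 2.99 (edgeR, adjusted p = 0.171).

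Among the S-phase members, Hist1h1b encodes a linker histone made in S phase and lies at chr13:21779832-21780625 (GRCm38.p6). Its level in spleen was 61.4, 50.8 and 127 CPM at days 7, 14 and 21 in healthy mice and 86.5, 705 and 393 CPM in tumour-bearing mice. Tumour-bearing spleen exceeded every healthy library at days 14 and 21, and at day 7 it fell between them. The log2 change for the tumour effect in spleen was 2.30 ± 0.57 (SE, edgeR, adjusted p = 0.0421). In lung it stood at 70, 112 and 128 CPM in healthy and 60.3, 47.2 and 30 CPM in tumour-bearing libraries, without overlap. The log2 change for the tumour effect in lung was -0.93 ± 0.52 (SE, edgeR, adjusted p = 0.253), which did not pass. In scaffold Hist1h1b had 117, 34.9 and 26.4 CPM in healthy and 180, 44.1 and 23.9 CPM in tumour-bearing libraries, highest at day 7 in both statuses.

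Rrm2, the regulated subunit of ribonucleotide reductase that makes deoxynucleotides for replication, lies at chr12:24708254-24714146. In spleen it was measured at 22.6, 3.33 and 37.7 CPM in healthy and 23.6, 163 and 256 CPM in tumour-bearing libraries. The libraries of day 7 differed little, and the tumour-bearing ones of days 14 and 21 were far above all healthy ones. Its log2 change for the tumour effect in spleen was 3.02 ± 0.75 (SE, edgeR, adjusted p = 0.0423). Lung had 18.8, 10.4 and 26.2 CPM in healthy and 11, 8.95 and 9.38 CPM in tumour-bearing libraries. Scaffold had 30.5, 21.4 and 12.2 CPM in healthy and 38, 12.1 and 8.37 CPM in tumour-bearing libraries. Outside the spleen the 2 statuses overlapped.

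The gene listed as 2810417H13Rik (Pclaf in RefSeq) encodes a factor that binds the PCNA clamp. Its spleen levels were 51.7, 38.3 and 113 CPM in healthy and 67.2, 371 and 412 CPM in tumour-bearing libraries. The pattern was that of Rrm2, with overlap at day 7, and the log2 change of 2.19 ± 0.57 for the tumour effect in spleen did not pass (edgeR, adjusted p = 0.0524). In lung it had 51.2, 43.5 and 67.1 CPM in healthy and 43.3, 48.8 and 17.4 CPM in tumour-bearing libraries. In scaffold the values were 74.2, 68.5 and 21.4 CPM against 98.3, 35.3 and 19.5 CPM. Neither tissue separated the statuses.

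Pcna itself stood apart from the other replication genes. In spleen it had 85.7, 55.8 and 106 CPM in healthy and 101, 76.6 and 88.5 CPM in tumour-bearing libraries, which overlapped. Its log2 change for the tumour effect in spleen was 0.44 ± 0.28 (SE, edgeR, adjusted p = 0.436). Lung had 86.8, 61.7 and 67.1 CPM in healthy and 65.4, 29.3 and 26 CPM in tumour-bearing libraries, with a log2 change of -0.68 ± 0.29 that did not pass (edgeR, adjusted p = 0.138). Scaffold had 198, 73.7 and 104 CPM in healthy and 207, 89.8 and 101 CPM in tumour-bearing libraries. In scaffold the level was highest at day 7 in both statuses, which overlapped.

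Among the mitotic members, Top2a encodes the topoisomerase that untangles sister chromosomes. In spleen it had 252, 191 and 390 CPM in healthy and 144, 651 and 727 CPM in tumour-bearing libraries. It was lowest in tumour-bearing spleen at day 7 and highest there at days 14 and 21, and its log2 change for the tumour effect in spleen was 0.95 ± 0.60 (SE, edgeR, adjusted p = 0.435). Lung had 229, 97.4 and 517 CPM in healthy and 152, 134 and 95.7 CPM in tumour-bearing libraries. Scaffold had 244, 102 and 147 CPM in healthy and 288, 87.1 and 47.1 CPM in tumour-bearing libraries. The healthy lung value of 517 CPM is from day 21, where 77.2% of barcodes were not own.

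Mki67 encodes Ki-67, the coat protein of mitotic chromosomes used as a stain for dividing cells. In spleen it had 428, 196 and 130 CPM in healthy and 212, 718 and 694 CPM in tumour-bearing libraries. At day 7 the healthy spleen had more, and at days 14 and 21 the tumour-bearing spleen did. The log2 change for the tumour effect in spleen was 1.45 ± 0.63 (SE, edgeR, adjusted p = 0.24). Lung had 264, 125 and 133 CPM in healthy and 210, 175 and 136 CPM in tumour-bearing libraries, and scaffold had 241, 52.3 and 122 CPM against 357, 120 and 78.4 CPM. All 3 tumour-bearing lung values fell within the healthy range.

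Cenpe encodes a kinesin that brings chromosomes to the middle of the spindle. Its spleen values were 90.5, 52.4 and 75.3 CPM in healthy and 46.7, 196 and 195 CPM in tumour-bearing libraries, again with the lowest value in tumour-bearing spleen at day 7. For the tumour effect in spleen its log2 change was 1.12 ± 0.53 (SE, edgeR, adjusted p = 0.281). Lung had 113, 69.6 and 78.5 CPM in healthy and 103, 54.5 and 38.5 CPM in tumour-bearing libraries, and scaffold had 88.2, 32.3 and 42.5 CPM against 135, 57.9 and 25.1 CPM. The other 21 mitotic members had medians over the 18 libraries between 6.04 CPM (Plk1) and 64 CPM (Cenpf, a kinetochore protein).

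Of the 3 genes in neither group, Hmgb2 (chr8:57511843-57515999) had the clearest difference. In spleen it had 443, 586 and 431 CPM in healthy and 835, 2880 and 4250 CPM in tumour-bearing libraries, a log2 change of 2.47 ± 0.49 for the tumour effect in spleen (SE, edgeR, adjusted p = 0.0129). In lung it had 425, 507 and 448 CPM in healthy and 1280, 1630 and 1420 CPM in tumour-bearing libraries, a log2 change of 1.91 ± 0.46 for the tumour effect in lung (SE, edgeR, adjusted p = 0.0215). In scaffold it had 281, 182 and 212 CPM in healthy and 408, 320 and 745 CPM in tumour-bearing libraries, where a log2 change of 1.15 ± 0.46 did not pass (edgeR, adjusted p = 0.976). In all 3 tissues every tumour-bearing library was above every healthy one. With the 2 healthy libraries of day 21 left out, the log2 change for Hmgb2 was 1.83 in spleen (edgeR, adjusted p = 0.0689) and 1.93 in lung (edgeR, adjusted p = 0.0411).

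Stmn1 encodes stathmin, which takes microtubules apart when the spindle is built. In spleen it had 40.4, 52.4 and 51.4 CPM in healthy and 54.1, 97.1 and 144 CPM in tumour-bearing libraries. All tumour-bearing values were above the healthy ones, by a small distance at day 7, and the log2 change of 1.22 ± 0.47 for the tumour effect in spleen did not pass (edgeR, adjusted p = 0.192). Lung had 59.6, 85.2 and 67.1 CPM in healthy and 60.3, 13 and 14.8 CPM in tumour-bearing libraries, and scaffold had 98.8, 54.1 and 50.8 CPM against 125, 45.7 and 16.7 CPM.

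Tubb5 encodes a beta-tubulin, the building block of microtubules. In lung it had 294, 403 and 257 CPM in healthy and 227, 120 and 64.7 CPM in tumour-bearing libraries. All tumour-bearing lung values lay below the healthy ones, and the log2 change of -1.11 ± 0.34 for the tumour effect in lung did not pass (edgeR, adjusted p = 0.0575). Spleen had 301, 332 and 318 CPM in healthy and 301, 281 and 459 CPM in tumour-bearing libraries, with a log2 change of 0.38 ± 0.34 for the tumour effect in spleen (edgeR, adjusted p = 0.581). In scaffold Tubb5 had 350, 315 and 221 CPM against 392, 324 and 163 CPM. Tubb5 and Hmgb2 thus lay on opposite sides of healthy lung.

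Markers of other cells moved with these results. The 8 neutrophil markers summed to 4755, 5077 and 6309 CPM in healthy lung and to 50040, 124200 and 171700 CPM in tumour-bearing lung. The 10 markers of neutrophil progenitors, the dividing precursors of neutrophils, summed to 827.7, 992.2 and 2407 CPM in healthy spleen and to 3895, 36930 and 37560 CPM in tumour-bearing spleen. All 8 neutrophil markers were called higher in lung, and all 10 progenitor markers in spleen, by the same edgeR test. No marker of either list was at 0 in all libraries. Counts were therefore summed again without the cells of these classes, as alternatives chosen after the data were seen.

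Without neutrophil progenitor-like cells, 0 of 40 members were called for the tumour effect in spleen, where 228 of 10486 genes were called higher and 26 lower. The median log2 change was 0.015, and 20 of 40 estimates were positive. Without neutrophil-like cells too, 0 were called and the median was 0.153, where 76 of 10218 genes were called higher and 17 lower. The log2 change of Hmgb2 in spleen was 1.90 without the progenitor-like cells (edgeR, adjusted p = 0.0513) and 1.14 without both classes (edgeR, adjusted p = 0.128). For Rrm2 the values were 0.94 (edgeR, adjusted p = 0.711) and 1.05 (edgeR, adjusted p = 0.771). In lung, Hmgb2 had 1.90 without the progenitor-like cells (edgeR, adjusted p = 0.0182) and 0.70 without both classes (edgeR, adjusted p = 0.494). Without the progenitor-like cells, 1 member was called higher and 3 lower for the tumour effect in lung, with a median of -0.925, where 747 of 10486 genes were called higher and 523 lower. Without both classes 0 members were called, with a median of -0.123, where 37 of 10218 genes were called higher and 1 lower.

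Whether the tumour effect differed between tissues was tested in the same model. The difference of tumour effects spleen minus lung was positive for 39 of 40 members, with a median of 1.654 on the log2 scale against 0.124 over all genes. Of the members 0 passed, where 0.0179% of genes were called higher and 0% lower, 1117 genes had an unadjusted p under 0.05, and DESeq2 called 1 member. The difference of tumour effects spleen minus scaffold was positive for 39 of 40, with a median of 1.477 against -0.039 over all genes. Of the members 0 passed there by edgeR and by DESeq2, where 0% of genes were called in either direction and 846 had an unadjusted p under 0.05. For Hist1h1b the difference between spleen and lung was 3.23 ± 0.77 (SE, edgeR, adjusted p = 0.276), for Rrm2 3.65 ± 1.04 (SE, edgeR, adjusted p = 0.336) and for Hmgb2 0.56 ± 0.65 (SE, edgeR, adjusted p = 0.799). The larger response of the spleen was thus not established by this test for any member.

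The days behind each effect were not alike. Of the 40 members, 19 were higher in tumour-bearing than in healthy spleen at day 7, with a median log2 difference of -0.048, where 53% of all genes were higher. At day 14 the number was 40, with a median of 2.248, where 48.4% of genes were higher. At day 21 it was 37, with a median of 1.382, where 53.9% of genes were higher. At day 7 the S-phase members were higher in 9 of 13 and the mitotic members in 7 of 24. No day has a replicate of its own, so these are descriptions of pairs of libraries.

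In lung 16 of 40 members were higher in the tumour-bearing library at day 7 (44.7% of all genes), 24 at day 14 (45.2% of genes) and 4 at day 21 (43.1% of genes), with median log2 differences of -0.168, 0.35 and -1.564. The lung pair of day 14 split the roles, with 19 of 24 mitotic but 4 of 13 S-phase members higher. The lung pair of day 21 sets the tumour-bearing library against the healthy one with 77.2% of barcodes not own. In scaffold 39 of 40 were higher at day 7 (52.6% of genes), with all 24 mitotic members among them, then 13 at day 14 (49% of genes) and 9 at day 21 (49.4% of genes). The scaffold medians were 0.513, -0.458 and -0.687.

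**Figure D3:**
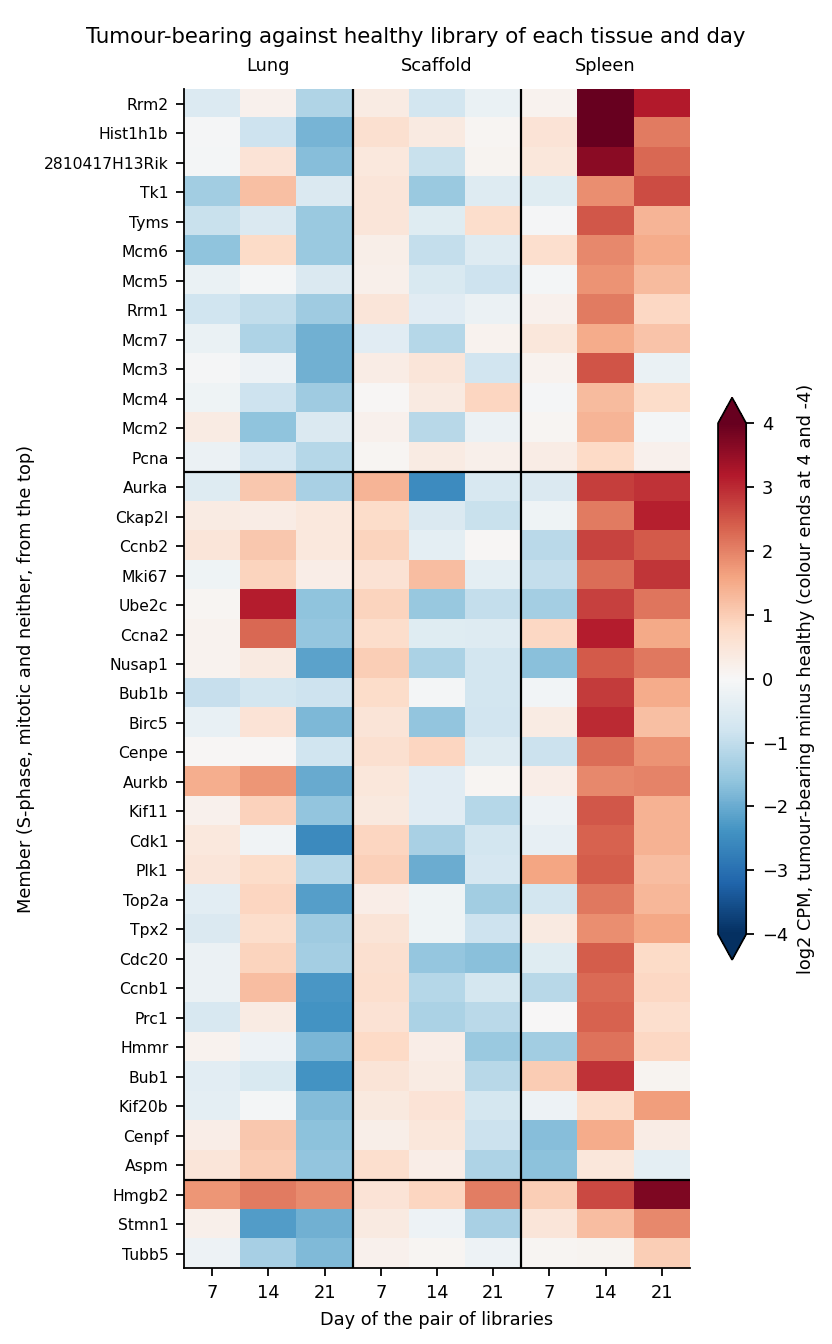
Log2 CPM (TMM-scaled) of the tumour-bearing minus the healthy library for each member (a line of cells) and each pair of tissue and day (a column), with S-phase members on top, mitotic members in the middle and Hmgb2, Stmn1 and Tubb5 at the bottom. Red is higher in the tumour-bearing library. All 40 members were higher at day 14 in spleen and 39 at day 7 in scaffold, and Hmgb2 was higher in all 9 pairs.

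On TMM-scaled values, 17 members were higher in tumour-bearing spleen on all 3 days and 0 lower. They include Mcm6, Mcm7, Rrm1, Rrm2 and Hist1h1b on the S-phase side and Birc5, Aurkb, Plk1, Bub1, Tpx2, Prc1 and Ccna2 on the mitotic side. Pcna and Tubb5 are among the 17 too, but on plain CPM Pcna was lower in tumour-bearing spleen at day 21 and Tubb5 at day 14. In lung, 12 were lower on all days, 8 of them S-phase members (Mcm3, Mcm4, Mcm5, Mcm7, Pcna, Tyms, Rrm1 and Hist1h1b). The other 4 were Kif20b, the spindle checkpoint kinases Bub1 and Bub1b, and Tubb5. Ckap2l, Ccnb2 and Hmgb2 were higher in lung on all days. In scaffold 4 were higher on all days (Mcm4, Pcna, Hist1h1b and Hmgb2) and 0 lower, but on plain CPM Pcna and Hist1h1b were slightly lower at day 21. The share of all genes with the same direction on all 3 days was not counted, so these counts have no background.

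Levels were also compared between tissues within a status, with the day as an additive block. In healthy mice 0 members were called for healthy spleen minus lung, where edgeR called 0.0358% of genes higher and 0.663% lower and 1144 had an unadjusted p under 0.05. For healthy scaffold minus lung 0 were called as well, where 2.75% were called higher and 3.2% lower and 2437 had an unadjusted p under 0.05. DESeq2 called 0 members in both. For healthy spleen minus scaffold, 1 member was called higher, where 6.61% of genes were called higher and 8.95% lower. It was Kif20b, with a log2 difference of 1.52 ± 0.47 (SE, edgeR, adjusted p = 0.04), and it was not called without day 7 or without day 14.

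In tumour-bearing mice the spleen stood apart. For tumour-bearing spleen minus lung 16 members were called higher and 0 lower, where 3.44% of genes were called higher and 3.19% lower. The median log2 difference was 2.172, against 0.034 over all genes. Of the 13 S-phase members 12 were called, against 3 of 24 mitotic members (Kif20b, Cdk1 and Bub1b) and 1 of the others (Tubb5). Mcm6 differed by 3.32 ± 0.62 (SE, edgeR, adjusted p = 0.0149), Mcm5 by 3.11 ± 0.63 (SE, edgeR, adjusted p = 0.0186) and Rrm2 by 4.08 ± 0.89 (SE, edgeR, adjusted p = 0.0224). Tyms, the enzyme that makes thymidylate, differed by 3.61 ± 0.87 (SE, edgeR, adjusted p = 0.0296). Mcm3 was the S-phase member that did not pass.

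For tumour-bearing spleen minus scaffold 18 members were called higher and 0 lower, where 6.47% of genes were called higher and 10.1% lower. The median was 2.066, against 0.086 over all genes. Here the calls took in 9 of 13 S-phase and 8 of 24 mitotic members, and Hmgb2. Hmgb2 differed by 2.67 ± 0.50 (SE, edgeR, adjusted p = 0.00214), Mcm7 by 2.32 ± 0.44 (SE, edgeR, adjusted p = 0.00234), Kif20b by 2.23 ± 0.47 (SE, edgeR, adjusted p = 0.00513) and Mki67 by 2.27 ± 0.62 (SE, edgeR, adjusted p = 0.0197). For tumour-bearing scaffold minus lung 1 member was higher and 1 lower, where 6.77% of genes were called higher and 5.92% lower. Pcna was higher in scaffold by 1.52 ± 0.33 (SE, edgeR, adjusted p = 0.0101), and Hmgb2 had a log2 difference of -1.83 ± 0.48 (SE, edgeR, adjusted p = 0.0232). Without neutrophil progenitor-like cells, 0 members were called for tumour-bearing spleen minus lung and 2 for tumour-bearing spleen minus scaffold. Of 10486 genes, 10 were called higher and 13 lower for spleen minus lung, and 449 higher and 747 lower for spleen minus scaffold. Leaving out day 14 left 0 members called in both, where 1 of 11833 genes was called higher for spleen minus lung, and 84 higher and 230 lower for spleen minus scaffold. Leaving out day 21 left 1 and 3 members, where of 10645 genes 86 were called higher and 361 lower, and 945 higher and 1195 lower. Leaving out day 7 left 11 and 34 members, where of 11769 genes 60 were called higher and 12 lower, and 352 higher and 576 lower. Pcna and Hmgb2 were called between scaffold and lung without day 21, and neither was called without day 7 or without day 14.

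The balance of S-phase against mitotic transcripts was taken as the log2 ratio of the summed CPM. In lung it was -1.632, -0.725 and -1.706 in healthy and -1.809, -1.882 and -1.901 in tumour-bearing libraries, lower in the tumour-bearing library of all 3 pairs. In spleen it was -1.788, -1.8 and -1.29 in healthy and -0.755, -1.062 and -1.335 in tumour-bearing libraries, higher in 2 of 3 pairs. In scaffold it was -0.855, -0.783 and -1.239 in healthy and -1.121, -0.899 and -0.46 in tumour-bearing libraries, higher in 1 of 3.

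Over all 9 pairs the mean difference in this ratio was 0.0659, with 3 pairs higher (2-sided exact sign-flip permutation test, p = 0.738). By tissue the mean difference was -0.509 in lung (exact sign-flip permutation p = 0.25), 0.132 in scaffold (exact sign-flip permutation p = 1) and 0.575 in spleen (exact sign-flip permutation p = 0.5). With 3 pairs the smallest p this test can give is 0.25, so no tissue could pass. Where the ratio was highest in spleen, in the tumour-bearing library of day 7, the mitotic sum was low rather than the S-phase sum high. By tumour-bearing over healthy summed CPM, S-phase members stood at 1.17 and mitotic members at 0.57 in that pair, at 5.82 and 3.49 at day 14 and at 2.01 and 2.07 at day 21.

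Single cells were then counted as carrying the programme when 3 or more members were detected. In all, 3852 of 24536 kept cells (15.7%) did. The share in healthy spleen was 17.6%, 7.49% and 22.9% at days 7, 14 and 21, and in tumour-bearing spleen it was 10.4%, 25.8% and 32.2%. In lung it was 13%, 8.27% and 21.6% in healthy and 7.47%, 6.69% and 8.8% in tumour-bearing libraries, lower in the tumour-bearing library of each pair. Scaffold had 24.2%, 8.29% and 15.8% in healthy and 21.8%, 15.4% and 11.5% in tumour-bearing libraries. Exact (Clopper-Pearson) 95% intervals, which cover counting error only, were 24.2% to 27.5% for tumour-bearing and 6.05% to 9.15% for healthy spleen at day 14.

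Over the 9 pairs the mean difference was 0.122 percentage points (SD 9.65), with 3 pairs higher (2-sided exact sign-flip permutation test, p = 0.988). It was -6.63 points in lung (0 of 3 higher, exact sign-flip permutation p = 0.25, the smallest possible), 0.141 in scaffold (1 of 3 higher, exact sign-flip permutation p = 1) and 6.85 in spleen (2 of 3 higher, exact sign-flip permutation p = 0.5). Counting only each library's own barcodes, healthy lung at day 21 had 7.66% in place of 21.6% and tumour-bearing lung 3.65% in place of 8.8%. Healthy spleen at day 21 had 25.9% in place of 22.9% and tumour-bearing spleen 37.1% in place of 32.2%. The order within these pairs was the same, but own cells were few in the healthy libraries. They numbered 235 in lung and 27 in spleen, against 2353 and 1465 in the tumour-bearing libraries, so the spleen order is not reliable. The lung pair of day 14 turned with a cutoff of 5 or more members, at 2.34% in healthy and 2.41% in tumour-bearing lung. It turned too with 3 or more of 37 members (without the 3 of neither group), at 3.05% and 3.24%.

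The count depends on depth, so each cell was also thinned to 400 UMIs, which left out 4804 cells with fewer. The thinned shares were 8.45%, 1.72% and 16.4% in healthy and 4.21%, 20.1% and 28.7% in tumour-bearing spleen. Lung had 4.48%, 2.96% and 16.7% in healthy and 2.52%, 1.79% and 4.26% in tumour-bearing libraries, and scaffold had 8.45%, 3.66% and 5.36% against 7.47%, 1.79% and 2.8%. The order within each lung and spleen pair stayed the same. In scaffold the pair of day 14 turned, so that the thinned share was lower in the tumour-bearing library of all 3 pairs. As a background, neutrophil-like cells had 3 or more members in 3.55% of 5412 cells (median 909 UMIs), but the class is mixed. Its cluster 9 had 11.5%, its clusters 1 and 4 had 1.02% and 1.48%, and in tumour-bearing spleen at day 21 the class had 13.6%. An unnamed cluster led by Irg1 had 0 of 452 (median 676 UMIs), which allows up to 0.813%.

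**Figure D4:**
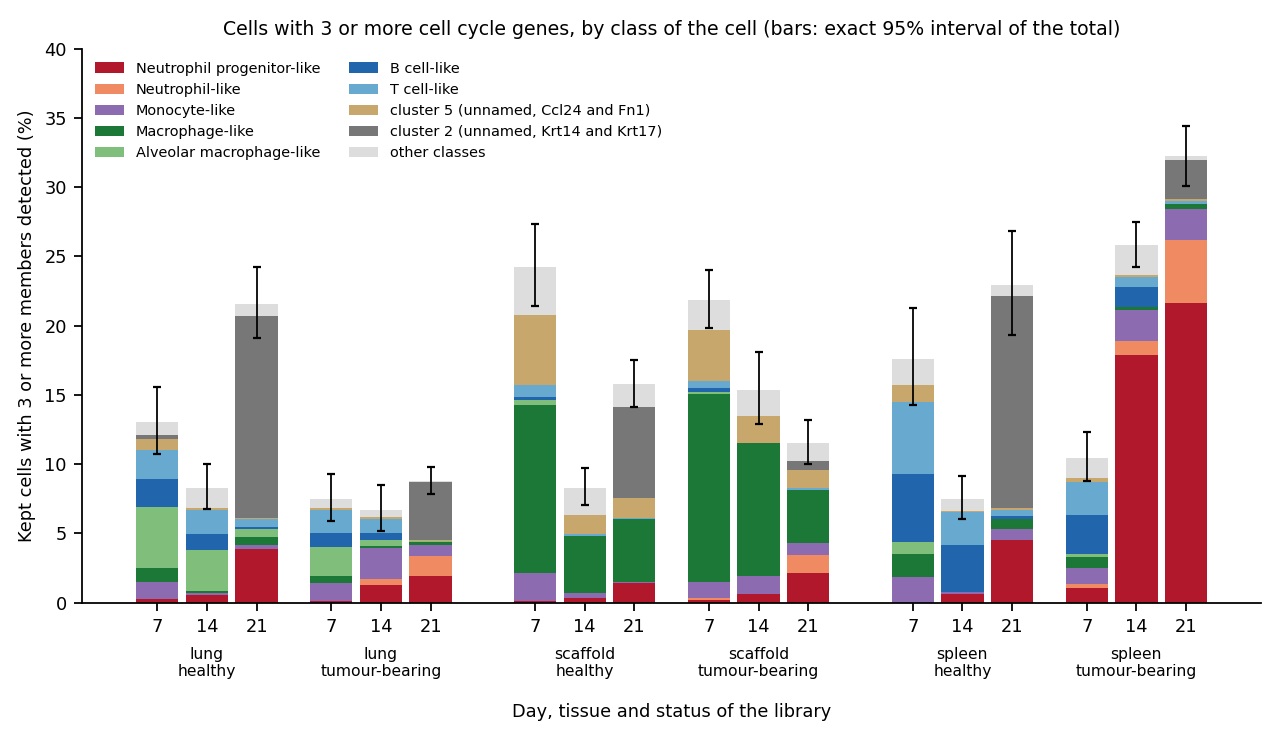
Percent of kept cells with 3 or more members detected, by library, split by the class of the cell, with exact 95% intervals of the total. Neutrophil progenitor-like cells (dark red) make up most of the bars of tumour-bearing spleen at days 14 and 21, macrophage-like cells (dark green) lead in most scaffold libraries, and an unnamed cluster whose barcodes are mostly shared (dark grey) fills those of healthy lung and spleen at day 21.

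Cells were classed by clustering on variable genes from which the members had been removed. The class with the most cycling cells was neutrophil progenitor-like, named from its granule protein genes (Elane, Mpo, Camp, Ltf). In it 69.2% of 1641 cells (exact interval 66.9% to 71.5%; median 1858 UMIs) had 3 or more members, and 54.4% after thinning, against 3.55% and a thinned 1.26% in neutrophil-like cells. This class held 29.5% of all cells with 3 or more members. Its cells were deep, and other genes of division remained among the clustering genes, so that class and member counts are not independent.

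In tumour-bearing spleen this class made up 9.85%, 69.1% and 67.2% of cells with 3 or more members at days 7, 14 and 21. The mean of these shares was 48.7%, and 24.3% with coarser clusters (Leiden resolution 0.5), where the cluster led by Ltf and Camp did not get the name. There 61.9% of 775 progenitor-like cells carried the programme at day 14 and 89% of 462 at day 21. They supplied 81.7% of the S-phase and 83.7% of the mitotic UMIs of the members in the library of day 14, 89.5% and 85.7% at day 21, and 31.6% and 46.6% at day 7. In healthy spleen other cells led at days 7 and 14. B cell-like cells made up 28.2% and T cell-like cells 29.4% of cells with 3 or more members at day 7, and 45.5% and 31.8% at day 14. In healthy spleen at day 21 they made up 0.855% and 1.71%, progenitor-like cells 19.7% and the unnamed cluster 2 66.7%. Leaving out the progenitor-like cells, the share with 3 or more members in tumour-bearing spleen was 9.62%, 11.2% and 14%.

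Other tissues had other cycling cells. In scaffold, macrophage-like cells supplied 42.4% to 59.5% of the S-phase UMIs and 24% to 56.6% of the mitotic UMIs of the members over the 6 libraries, and 16.9% of all 3912 macrophage-like cells had 3 or more members (4.7% thinned). In healthy lung, cells classed as alveolar macrophage-like, which clear surfactant and dust, made up 33.7% and 35.9% of cells with 3 or more members at days 7 and 14, and 27.4% in tumour-bearing lung at day 7. Their share was 2.7% in healthy lung at day 21, and 6.25% and 0.671% in tumour-bearing lung at days 14 and 21. Monocyte-like cells made up 34.4% in tumour-bearing lung at day 14, and progenitor-like cells 22.1% there at day 21. Of all 626 alveolar macrophage-like cells 17.6% had 3 or more members (8.87% thinned). Lower shares were found in T cell-like cells (11.6%, or 3.39% thinned) and B cell-like cells (7.03%, or 2.75% thinned), against a thinned 1.26% in neutrophil-like cells. Monocyte-like cells had 17.1% (9.57% thinned). Plasma cell-like cells, which secrete antibody, had 35.9%, but numbered 39.

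Cluster 2 was left without a name. It was led by Krt14 and Krt17, keratins of basal epithelium, and by pseudogenes. Of its 2072 cells 27% had 3 or more members, but only 56 of them had barcodes of their own library, and of those 7.14% did. It made up 67.6% and 66.7% of cells with 3 or more members in healthy lung and healthy spleen at day 21, 48% in tumour-bearing lung at day 21 and 42% in healthy scaffold at day 21.

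The summed levels differed between the clusters of the neutrophil lineage. Cluster 11, with the early granule genes (Elane at 6550 CPM), had summed S-phase and mitotic levels of 3331 and 6246 CPM. Cluster 10, with the later granule gene Camp at 27500 CPM, had 1444 and 5058 CPM, so that in proportion its S-phase sum was lower by more than its mitotic sum. Of the neutrophil-like clusters, cluster 9 had 98.97 and 667.2 CPM, cluster 1 had 64.38 and 76.98 CPM, and cluster 4 had 77.5 and 112.3 CPM. Cells with 3 or more members made up 85.9%, 56.7%, 11.5%, 1.02% and 1.48% of the 5 clusters in this order, and 76.5%, 41.2%, 4.27%, 0.257% and 0.282% after thinning. Cluster 9 was as deep as the progenitors, with a median of 2026 UMIs against 1915 and 1857.

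Single members differed too. Rrm2 went from 449 CPM in cluster 11 to 149, 7.51, 0.933 and 0.562 CPM in clusters 10, 9, 1 and 4, and Mki67 from 1060 to 977, 164, 18.7 and 28.6 CPM. Pcna was at 166, 54, 8.53, 25.2 and 12.9 CPM. Hmgb2 stayed high throughout, at 4030, 5130, 2040, 1380 and 2110 CPM, so that neutrophil-like cells without the other members still had it. In spleen of tumour-bearing mice, 94.7% of 225 cells of cluster 11 had 3 or more members at day 14 and 96.9% of 226 at day 21. For cluster 10 the shares were 48.5% of 550 and 81.4% of 236. These values describe clusters over all libraries, and cells of 1 library are not replicates.

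**Figure D5:**
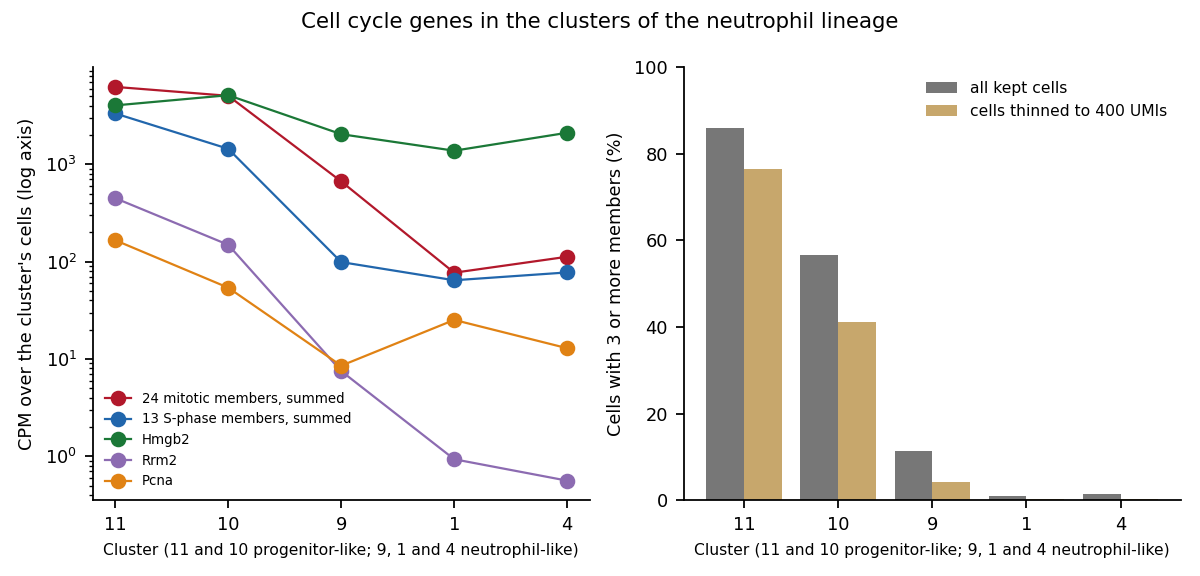
Levels of the members in the 5 clusters of the neutrophil lineage (left, CPM over the cluster's cells on a log axis, lines only to guide the eye) and percent of cells with 3 or more members (right, for all kept cells and for cells thinned to 400 UMIs). Summed S-phase CPM was 3331 in cluster 11 and 77.5 in cluster 4, while Hmgb2 was 4030 and 2110 CPM.

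Cell cycle genes outside the list behaved alike in spleen. Of 31 other S-phase genes tested, 30 had a positive estimate for the tumour effect in spleen, with a median of 1.036, and 2 were called higher. These were Clspn (claspin, a replication checkpoint adaptor) at 2.26 ± 0.46 (SE, edgeR, adjusted p = 0.0152) and Lig1 (DNA ligase of replication) at 1.54 ± 0.34 (SE, edgeR, adjusted p = 0.0255). Of 40 other mitotic genes, 40 were positive, with a median of 1.102, and 2 were called, Cdca3 at 2.80 ± 0.51 (SE, edgeR, adjusted p = 0.00774) and Racgap1, which acts in cytokinesis, at 1.98 ± 0.50 (SE, edgeR, adjusted p = 0.0481). Without neutrophil progenitor-like cells 0 of 28 and 0 of 35 were called in spleen by edgeR, with medians of 0.166 and 0.022, and 0 were called without day 14. Over all genes, 228 of 10486 were called higher without these cells, and 0 of 11833 without day 14. For the tumour effect in lung 0 other S-phase genes were called, and 1 other mitotic gene was higher, Lbr (the lamin B receptor of the nuclear envelope) at 2.31 ± 0.47 (SE, edgeR, adjusted p = 0.00995). In scaffold 0 of either list were called by edgeR and by DESeq2.

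Genes that admit cells to the cycle (entry regulators) and genes that hold them out (brakes) formed 2 further lists, and the difference between the lists was not tested. Of 21 entry regulators tested for the tumour effect in lung, 1 was called higher and 2 lower. Ccnd3, a D cyclin, was at 1.96 ± 0.52 (SE, edgeR, adjusted p = 0.0354), Myc at -1.53 ± 0.34 (SE, edgeR, adjusted p = 0.0162) and Cdk4, the kinase of D cyclins, at -1.04 ± 0.30 (SE, edgeR, adjusted p = 0.046). Of 10 brakes tested, 4 were called higher in lung and 0 lower. Cdkn2d, an inhibitor of Cdk4 and Cdk6, was at 3.10 ± 0.53 (SE, edgeR, adjusted p = 0.00416), Btg2 at 1.94 ± 0.43 (SE, edgeR, adjusted p = 0.0153), Cdkn1b, the p27 inhibitor, at 1.65 ± 0.38 (SE, edgeR, adjusted p = 0.018) and Klf2 at 2.17 ± 0.63 (SE, edgeR, adjusted p = 0.0471). The neutrophil markers given above moved with these genes in lung. The 4 calls were also made without neutrophil progenitor-like cells, but without neutrophil-like cells too, 0 of 9 brakes tested were called. Over all genes, 37 of 10218 were called higher in lung without both classes. With the 2 healthy libraries of day 21 left out, 1 brake and 0 entry regulators were called in lung, and without day 14, 0 of either list.

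For the tumour effect in spleen, 4 of 21 entry regulators and 1 of 10 brakes were called higher. The entry regulators were the cyclin Ccne1, the phosphatase Cdc25a, the kinase Cdk6 and the factor E2f8. E2f8 was at 2.24 ± 0.49 (SE, edgeR, adjusted p = 0.0227) and Ccne1 at 2.36 ± 0.57 (SE, edgeR, adjusted p = 0.0378). The brake was Cdkn2d, at 2.88 ± 0.56 (SE, edgeR, adjusted p = 0.0109). Without neutrophil progenitor-like cells, or without day 14, 0 genes of either list were called in spleen by edgeR. Over all genes, 228 of 10486 were called higher without these cells, and 0 of 11833 without day 14. In scaffold 0 genes of either list were called by edgeR and by DESeq2.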

How the data were processed

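Drop-seq libraries of lung, spleen and scaffold from healthy and tumour-bearing mice were analysed from the unscaled UMI counts that the authors deposited, as 1 table of genes and barcodes per library. Genome build mm10 and Seurat version 2 are named per the submitters' processing notes. Aligner, annotation and cell calling: not given in the sources used here.

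Barcodes with 200 or more genes and under 20% mitochondrial UMIs were kept (24536 of 26397). Library totals were 292765 to 4530115 UMIs. The members, their roles, the other lists and the markers were chosen with earlier results of these data known.

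Summed UMIs were tested with edgeR 4.0.16 in R 4.3.3 (glmQLFit, glmQLFTest, TMM, filterByExpr), tested on simulated data. One model fitted the 9 combinations of tissue and day and, for each tissue, a tumour term (6 residual degrees of freedom, biological coefficient of variation 0.315). Levels between tissues came from 6 groups with day as an additive block (10 residual degrees of freedom, 0.363). Days serve as replicates. The series pairs libraries of 1 tissue and day by time, and their deviations from group means correlated at 0.185 to 0.625 across genes.

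Cells were clustered with scanpy 1.11.5 and leidenalg 0.10.2 on 1993 variable genes without the members and the listed cell cycle genes (30 components, 15 neighbours, resolution 1, 27 clusters). Classes were named from the markers by thresholds chosen once clusters had been seen, and 8 clusters stayed unnamed. No doublet caller was run.

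Values in every library are given for the 3 members of each role with the highest mean CPM and for members called in a tumour effect. From other lists the 3 genes with the smallest p per comparison could be named. Where 4 were called, the last was named after its value was seen. Alternatives (scaling, DESeq2 1.42.0, the filter, days, barcodes and cells left out, thinning, resolution) are in the closing section.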

Additional observations from a re-analysis of the deposited data

How the results depend on the processing

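Counts of members called moved with the filter, the libraries and the cells used. For the tumour effect in lung, 1 member was called in the analysis reported. It was 4 with library totals alone, 2 with DESeq2, 0 with no replicate block, 4 without neutrophil progenitor-like cells and 0 without neutrophil-like cells too, and 0 to 2 with 1 day left out. For the tumour effect in spleen, 3 were called. It was 1 with library totals alone, 18 with no filter on low counts, 1 with no replicate block, 6 with shared barcodes assigned, 5 in cells with 400 or more genes, 0 with the tissue fitted alone, 0 with the 2 healthy libraries of day 21 left out, 0 without either set of neutrophil classes, and 0 to 11 with 1 day left out. For the difference of tumour effects spleen minus lung, 0 became 1 with DESeq2 and 4 with no filter, and for the difference of tumour effects spleen minus scaffold, 4 with no filter. Calls over all genes moved too. In lung 687 of 11158 genes were called higher and 325 lower in the analysis reported. Library totals alone gave 496 and 933 there. In spleen 311 were called higher and 58 lower. That became 620 and 289 of 21786 with no filter, 476 and 22 of 10943 with shared barcodes assigned, and 72 and 0 with no replicate block. No filter gave 33 higher and 13 lower for the difference spleen minus lung, and 100 and 12 for spleen minus scaffold.

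For healthy scaffold minus lung, 0 became 1 without both neutrophil classes. For healthy spleen minus scaffold, 1 became 2 with DESeq2, 3 with no filter, 0 with no replicate block, 0 in cells with 400 or more genes, 2 with day 21 left out and shared barcodes assigned, 0 without cluster 2, and 0 to 1 with 1 day left out. For tumour-bearing spleen minus lung, 16 became 26 with DESeq2, 35 with no filter, 2 with no replicate block, 33 with shared barcodes assigned, 3 with day 21 also left out, 0 without either set of neutrophil classes, 30 without cluster 2, and 0 to 11 with 1 day left out. For tumour-bearing scaffold minus lung, 2 became 1 with no replicate block, 1 without both neutrophil classes, and 0 to 2 with 1 day left out. For tumour-bearing spleen minus scaffold, 18 became 30 with DESeq2, 38 with no filter, 11 with no replicate block, 32 with shared barcodes assigned, 3 with day 21 also left out, 31 with the 2 healthy libraries of day 21 left out, 2 without progenitor-like cells, 3 without both classes, 30 without cluster 2, and 0 to 34 with 1 day left out. Without day 14, the number was 0 in all 11 comparisons, but few genes were called at all, 0 of 11833 for the tumour effect in spleen and for both differences of tumour effects. For tumour-bearing spleen minus lung, few genes were called without progenitor-like cells too, 10 of 10486 higher and 13 lower. Without both classes it was 2 of 10218 higher and 5 lower. In the analysis reported, 384 of 11158 genes were higher and 356 lower for that comparison. DESeq2 gave 654 and 983, no filter 477 and 989 of 21786, shared barcodes assigned 883 and 937 of 10943, and no replicate block 19 and 24. For tumour-bearing spleen minus scaffold it was 722 higher and 1132 lower. DESeq2 gave 995 and 1408, no filter 1133 and 1252, shared barcodes assigned 962 and 1347, and no replicate block 324 and 703.

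The share of cells with 3 or more members over 9 pairs turned to -0.0966 points with barcodes alike in 11 bases merged and -3.22 without progenitor-like cells, and ranged from -3.79 to 2.69 with 1 day left out. The share of cells with 3 or more members in scaffold turned to -0.423 with 5 or more members, -1.59 with 37 members (without the 3 of neither group), -1.81 thinned and -0.151 without progenitor-like cells, and ranged from -3.32 to 2.34 with 1 day left out. The share of cells with 3 or more members in spleen turned to -3.19 without progenitor-like cells. The S-phase to mitotic ratio of summed CPM over 9 pairs turned to -0.0643 on medians and -0.101 with shared barcodes assigned, and the S-phase to mitotic ratio of summed CPM in scaffold ranged from -0.192 to 0.332 with 1 day left out. The lineage of cells with 3 or more members gave progenitor-like cells a mean of 48.7% in tumour-bearing spleen, and 24.3% at resolution 0.5.

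Without progenitor-like cells, the tumour effect in spleen turned to -0.44 for Pcna, -0.22 for Top2a and -0.27 for Tubb5, and without both classes to -0.22 for Pcna, -0.14 for Top2a and -0.083 for Cenpe. For Hmgb2 the difference between spleen and lung ranged from -0.11 without day 21 to 1.078 without day 7, and was -0.10 with day 21 left out and shared barcodes assigned, and -0.10 with the 2 healthy libraries of day 21 left out. With 1 choice changed, 181 results for comparisons, shares and ratios were labelled the same, 56 moved and 12 reversed. These labels do not record the side of the threshold, and for counts of members called they record no direction. The tests on 3 pairs could not change side, as their smallest possible p is 0.25. For single members 546 values kept their direction and side of the threshold, 229 lost and 15 gained significance. Scaling by library totals moved the median of all genes from -0.217 to -0.485 in lung and from -0.032 to -0.318 in spleen. The cause of these changes was not tested. Alternatives that leave out cells, shared barcodes or the 2 healthy libraries were chosen after the data were seen. Depth limits the rarer members.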
